A study of Mus musculus with 2 samples.

Results

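The genes described here are 10 developmental transcription factor genes, most of them known from nephron formation in the embryo and some from the repair of injured tubules: Sox9, Sox4, Sox11, Pax2, Pax8, Lhx1, Runx1, Foxc1, Myc and Emx2. They were taken by gene symbol from a table of read counts for 45777 mouse genes, and all 10 symbols were found. The counts come from 2 RNA-seq libraries of whole kidney, 1 from mice with a conditional knockout (CKO) of Inmt directed at the proximal tubule and 1 from control mice. Inmt encodes indolethylamine N-methyltransferase, a methyl transfer enzyme. Both groups ate standard chow and had no treatment, and the labels used here name no age, sex, strain, Cre driver or number of pooled animals. The CKO library held 38136616 counted reads and the control library 33618076. Levels are given as CPM, read counts relative to library size, with the sizes scaled by the trimmed mean of M values (TMM). Inmt itself had 5283 reads in the CKO library and 17678 in the control library, and its CPM was 4.73-fold lower in CKO kidneys (95% interval 4.59 to 4.88).

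Each genotype is represented by a single library, so no replicate spread and no test between genotypes can be given. Every interval below is an exact 95% interval of counting error, covers neither animals nor library preparation, and compares the 2 libraries. In RNA from whole kidney, fewer cells of a type and less RNA per cell cannot be told apart.

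Nephrons form when mesenchymal progenitors condense beside the branching ureteric bud, turn into epithelium as a renal vesicle, and elongate into glomerulus, proximal tubule, loop and distal tubule. PAX2 and PAX8, paired-box factors, commit cells to the renal lineage, and LHX1 patterns the renal vesicle. EMX2 acts in the ureteric bud, SOX9, SOX4 and SOX11 in the elongating nephron and the bud tips, and FOXC1 in mesenchyme and podocytes. In the adult mouse kidney SOX9 is known to be low in resting tubules and to appear in tubule cells that survive injury and proliferate.

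The 10 genes split into a set that was higher in the CKO library and a set that was not. Sox9, Sox11, Runx1, Sox4 and Myc were at least 2-fold higher, Foxc1 was 1.88-fold higher, Pax8 and Pax2 lay near 1, and Lhx1 and Emx2 were about as much lower as each other. A gene was called at least 2-fold higher or lower here when either library had at least 1 CPM of it and its log2 ratio of CPM + 0.5 was at least 1 or at most -1. The added 0.5 CPM shrinks the ratios of genes that have few reads. By this rule 5 of the 10 were higher and none (0) was lower. Of all 15129 genes that reached 1 CPM, 10.3% were called higher and 1.66% lower. The median log2 ratio was 1.14 for the 10 genes and 0.01 for all 15129. Sox9, Sox11 and Runx1 were under 1 CPM in the control library and passed the minimum through the CKO library alone, and 57.3% of the 1048 genes in that position were called higher. Among the 14081 genes with 1 CPM or more in the control library, 6.75% were called higher, and these include Sox4 and Myc among the other 7 factor genes. The median log2 ratio of these 7 factor genes was 0.056. The 10 genes and all lists below were chosen with earlier results of these data known, so comparisons with these shares are description only.

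**Figure D1:**
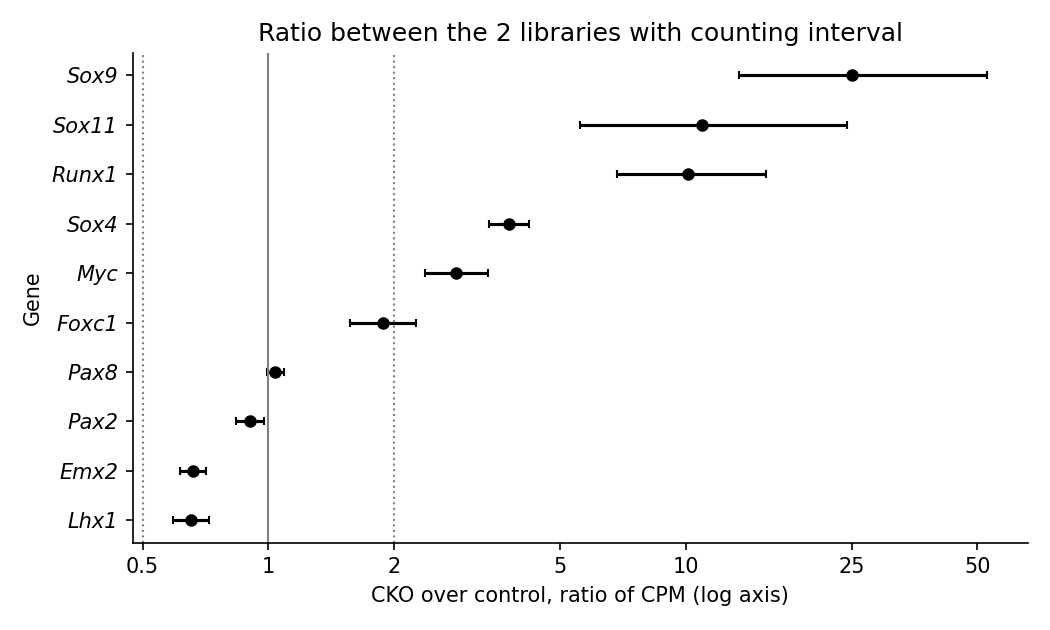
Ratio of CPM in the CKO library over CPM in the control library for each of the 10 genes (log axis), as points with exact 95% counting intervals from 1 library per group. Sox9 lies at 25.03 and Lhx1 at 0.653, and the dotted lines mark 2-fold in each direction.

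SOX proteins bind DNA through an HMG box. Sox9 had 354 reads in the CKO library and 10 in the control library. That is 8.31 CPM (7.47 to 9.23) in the CKO library, against 0.332 CPM (0.159 to 0.611) in the control library. The ratio was 25.03 (13.5 to 52.7), and its log2 ratio of 3.40 ranked 28 from the highest among the 15129 expressed genes. The intervals of the levels lie far apart, and the ratio has a wide interval because the control library gave 10 reads. Sox9 lies on chromosome 11 at 112782210 to 112787757 (GRCm38), has 3 exons, and no other gene with a read lies within 200 kb of it.

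Sox4 and Sox11 belong to the SOXC group, which acts in progenitor survival and differentiation, and each is a gene of 1 exon, Sox4 on chromosome 13 at 28948919 to 28953699 and Sox11 on chromosome 12 at 27334268 to 27342718 (GRCm38). Sox4 had 2128 reads, or 49.98 CPM (47.9 to 52.1), in the CKO library and 399 reads, or 13.3 CPM (12.0 to 14.6), in the control library. It was 3.77-fold higher (3.39 to 4.21), with the narrowest interval among the 5 factor genes called higher. Sox11 had 139 reads, or 3.26 CPM, in the CKO library and 9 reads, or 0.299 CPM, in the control library, a ratio of 10.9 (5.59 to 24.4). Sox12, the remaining SOXC gene, had 1126 reads in the CKO library and 661 in the control library, 26.4 CPM against 22.0 CPM, and a ratio of 1.20 (1.09 to 1.33).

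The 250 bases before the annotated start of Sox4 and Sox11 are shown because these intronless SOXC genes were higher together. They come from RefSeq on GRCm38, read 5′ to 3′ on the minus strand, at chr13:28953700-28953949 for Sox4 and chr12:27342719-27342968 for Sox11. Capitals mark matches to the motifs described further on.
Sox4: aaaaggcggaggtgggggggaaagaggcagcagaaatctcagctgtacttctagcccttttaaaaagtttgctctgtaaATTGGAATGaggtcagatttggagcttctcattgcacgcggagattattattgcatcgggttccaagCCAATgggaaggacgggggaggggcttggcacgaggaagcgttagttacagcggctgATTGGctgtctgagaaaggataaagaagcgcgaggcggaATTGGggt
Sox11: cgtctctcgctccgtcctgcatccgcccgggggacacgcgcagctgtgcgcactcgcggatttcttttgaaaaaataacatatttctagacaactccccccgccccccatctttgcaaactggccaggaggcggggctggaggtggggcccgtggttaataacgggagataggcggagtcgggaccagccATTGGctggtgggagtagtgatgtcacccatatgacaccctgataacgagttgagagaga

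The other SOX genes that reached 1 CPM stayed within 2-fold. Of 17 other SOX genes, 7 reached 1 CPM, none (0) of them called in either direction, with log2 ratios between -0.19 and 0.26 and a median of 0.02. Sox6, the most abundant of them by CPM, had 47.5 CPM in the CKO library and 51.1 CPM in the control library. Sox18, a factor of vessel endothelium, had 14.3 CPM in the CKO library and 16.4 CPM in the control library, and Sox5 had 3.15 CPM and 2.56 CPM in the same order of libraries. Sox8, a close relative of Sox9, stayed just under the minimum with 41 reads in the CKO library and 11 in the control library, a ratio of 2.64 (1.33 to 5.69). Per unit of gene length, in the authors' FPKM (fragments relative to gene length and library size), Sox4 made up 22.0% of the SOX family sum in the CKO library and 7.25% in the control library, and Sox9 made up 4.21% in the CKO library and 0.198% in the control library.

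Runx1 encodes a runt-domain factor best known from blood formation, and it is also described in injured tubule epithelium. It spans chromosome 16 from 92601466 to 92826074 (GRCm38). It had 386 reads, or 9.07 CPM (8.18 to 10.02), in the CKO library and 27 reads, or 0.897 CPM (0.591 to 1.30), in the control library. The ratio was 10.1 (6.84 to 15.5), and 0.436% of expressed genes had a larger log2 ratio. Its relatives were higher too. Runx2, known from bone, had 178 reads in the CKO library and 55 in the control library (2.29-fold, 1.68 to 3.16), and Runx3, known from lymphocytes, had 123 and 33 reads in that order (2.64-fold, 1.78 to 3.997). Cbfb, the partner that all RUNX proteins need to bind DNA well, had 1149 reads in the CKO library and 514 in the control library, 1.58-fold higher (1.42 to 1.76). By FPKM, Runx1 was 47.4% of the RUNX sum in the CKO library and 16.9% in the control library, where Runx2 and Runx3 were each above 40% (41.2% and 41.9%).

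Blood cell markers were higher in the same library as Runx1. All 9 macrophage and monocyte markers had 1 CPM or more in the control library. Of these, 8 were at least 2-fold higher, against 6.75% of all such genes. None (0) was at 0 reads in either library. Their summed level was 341 CPM in the CKO library and 74.2 CPM in the control library. Of 6 T and NK cell markers with 1 CPM or more, 5 were at least 2-fold higher, and the list of 8 summed to 13.1 CPM in the CKO library and 3.06 CPM in the control library, with Cd3d at 0 in the control library. Of these 6 markers, 5 passed the minimum through the CKO library alone, where 57.3% of all genes in that position were called higher, and 4 of those 5 were called. The 6 B and plasma cell markers summed to 12.8 CPM in the CKO library and 4.82 CPM in the control library, and Ighm gave 95.4% of these reads in the CKO library and 71.0% in the control library. The 5 neutrophil markers summed to 4.84 CPM in the CKO library and 0.897 CPM in the control library, with S100a8 and Ly6g at 0 in both libraries and Retnlg at 0 in the control library. Csf3r gave 182 of the 206 neutrophil marker reads in the CKO library and 22 of the 27 in the control library. The part of these cells in the level of Runx1 was not tested.

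Runx1 has 2 annotated starts in RefSeq, far apart on chromosome 16, and the deposited counts add the reads of both. Their upstream windows are shown because they differ in composition, with 45.6% G and C at the distal start (chr16:92826075-92826324) and 67.6% at the proximal one (chr16:92697330-92697579), both read 5′ to 3′ on the minus strand.
Runx1 distal: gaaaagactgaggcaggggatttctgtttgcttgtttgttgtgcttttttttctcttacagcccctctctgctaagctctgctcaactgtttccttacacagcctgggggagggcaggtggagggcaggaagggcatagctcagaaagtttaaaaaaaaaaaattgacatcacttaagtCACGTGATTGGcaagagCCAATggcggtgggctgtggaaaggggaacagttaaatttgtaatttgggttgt
Runx1 proximal: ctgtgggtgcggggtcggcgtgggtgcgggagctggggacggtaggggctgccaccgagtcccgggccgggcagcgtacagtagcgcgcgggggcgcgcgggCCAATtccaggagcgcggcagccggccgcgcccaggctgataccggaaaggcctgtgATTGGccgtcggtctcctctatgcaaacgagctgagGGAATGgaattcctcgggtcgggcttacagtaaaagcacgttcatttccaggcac

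Myc, the growth-promoting E-box factor, had 662 reads, or 15.5 CPM (14.4 to 16.8), in the CKO library and 166 reads, or 5.51 CPM (4.71 to 6.42), in the control library, a ratio of 2.82 (2.38 to 3.36). It lies on chromosome 15 at 61985341 to 61990361 (GRCm38), in up to 3 exons. Of its paralogs, Mycl had 131 reads in the CKO library and 17 in the control library (5.45-fold higher, 3.28 to 9.64), whereas Mycn, the MYC gene of nephron progenitors, had 129 reads in each, which is 3.03 CPM in the CKO library and 4.28 CPM in the control library. By FPKM, Myc was 76.3% of the MYC gene sum in the CKO library and 55.7% in the control library. Its obligate partner Max had 45.1 CPM in the CKO library and 48.0 CPM in the control library. Among 12 partners, paralogs and rivals of the network, Mycl was the 1 gene called higher and none (0) was called lower. Their median log2 ratio was -0.06. Mycl was among the 2 that passed the minimum through the CKO library alone, where 57.3% of all genes in that position were called higher. None (0) of the other 10 was called higher, against 6.75% of all genes with 1 CPM or more in the control library. Mlxipl, a glucose-responsive member of the network and its most abundant gene, had 277 CPM in the CKO library and 375 CPM in the control library, and Mxd3 had 46 reads in the CKO library and 14 in the control library.

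Genes known as MYC targets had a median log2 ratio of -0.06, near the 0.01 of all expressed genes. All 20 such genes had 1 CPM or more in the control library. None (0) was called higher, against 6.75% of all genes with that level. Only 1 was called lower, against 1.66% of all expressed genes. With 20 genes, both counts lie near these shares. The lower one was Odc1, ornithine decarboxylase, a classic MYC target and the first enzyme of polyamine synthesis, at 332 CPM in the CKO library and 996 CPM in the control library, 2.998-fold lower (2.94 to 3.06). Ldha, lactate dehydrogenase A, had 433 CPM in the CKO library and 588 CPM in the control library. Rrp9, a ribosomal RNA processing factor, had 8.71 CPM and 13.3 CPM in that order. The part of Myc in the levels of Odc1 and the other targets was not tested.

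Foxc1, a forkhead factor of kidney mesenchyme and podocytes, had 452 reads, or 10.6 CPM (9.66 to 11.6), in the CKO library and 170 reads, or 5.65 CPM (4.83 to 6.56), in the control library. The ratio of 1.88 (1.57 to 2.26) stayed under the 2-fold limit, with a log2 ratio of 0.85, and reached 1.15 after scaling by total counts. Foxc1 is a gene of 1 exon on chromosome 13 at 31806646 to 31810635 (GRCm38). Its paralog Foxc2 had 210 reads in the CKO library and 96 in the control library, 1.55-fold higher (1.21 to 1.99). Of 6 podocyte markers, none (0) was called, none was at 0, and their sum was 427 CPM in the CKO library and 419 CPM in the control library. All 7 fibroblast and pericyte markers had 1 CPM or more in the control library. Of these, 5 were called higher, against 6.75% of all such genes, and none (0) was at 0. Their sum was 754 CPM in the CKO library and 256 CPM in the control library. The part of fibroblasts in the level of Foxc1 was not tested.

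**Figure D2:**
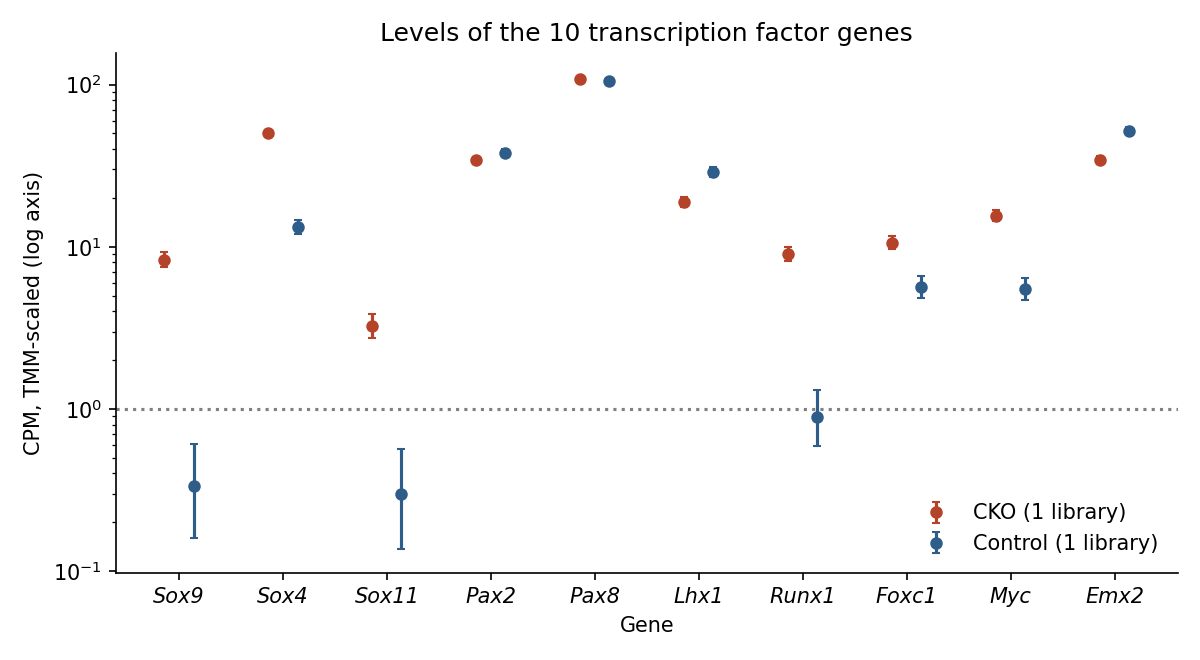
CPM of each gene in the CKO library (left point) and the control library (right point) on a log axis, with exact 95% Poisson intervals of the count and 1 library per group. The dotted line marks 1 CPM, under which Sox9, Sox11 and Runx1 lay in the control library, and a gene's points are to be compared with each other since CPM is not scaled by gene length.

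The PAX genes were the steady members. Pax8 had 4635 reads, or 109 CPM (105.7 to 112.0), in the CKO library and 3153 reads, or 105 CPM (101.1 to 108.4), in the control library, and its ratio of 1.04 (0.993 to 1.09) had an interval that includes 1. Pax2 had 1450 reads, or 34.1 CPM (32.3 to 35.9), in the CKO library and 1135 reads, or 37.7 CPM (35.5 to 40.0), in the control library. Its ratio was 0.903 (0.835 to 0.977), and its log2 ratio of -0.14 became 0.17 after scaling by total counts. Pax8 lies on chromosome 2 at 24420551 to 24475599 and Pax2 on chromosome 19 at 44746601 to 44838269 (GRCm38). None (0) of the 7 other PAX genes reached 1 CPM, and Pax5, a B cell factor, was the only other one with reads, 13 in the CKO library and 0 in the control library. By FPKM, Pax8 was 82.9% of the PAX sum in the CKO library and 80.8% in the control library. The collecting duct, where adult Pax2 is known to persist, had 6 principal cell markers, of which Aqp2 was called higher, with a sum of 435 CPM in the CKO library and 301 CPM in the control library. The 3 markers of parietal cells, which line the Bowman capsule and also keep Pax2, summed to 276 CPM in the CKO library and 166 CPM in the control library, with Cldn1 called higher. All principal cell and parietal cell markers had 1 CPM or more in the control library, and 6.75% of all such genes were called higher.

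Lhx1 and Emx2 were lower by nearly the same amount. Lhx1, a LIM homeobox factor, had 806 reads, or 18.9 CPM (17.6 to 20.3), in the CKO library and 873 reads, or 29.0 CPM (27.1 to 31.0), in the control library, 1.53-fold lower (1.39 to 1.69). Emx2, a homeobox factor of the urogenital tract, had 1458 reads, or 34.2 CPM (32.5 to 36.0), in the CKO library and 1566 reads, or 52.0 CPM (49.5 to 54.7), in the control library, 1.52-fold lower (1.41 to 1.63). Lhx1 lies on chromosome 11 at 84517975 to 84525534 and Emx2 on chromosome 19 at 59458690 to 59465357 (GRCm38). Their log2 ratios were both -0.60, below those of 93.6% and 93.4% of expressed genes. They stayed below 0 under all 13 alternatives, but changes of the minimum, fold limit or pseudocount cannot alter a sign. The authors' normalized table uses nearly the same library sizes as TMM. The smallest size was -0.19 for Lhx1 and -0.17 for Emx2 on the authors' TPM scale, where the median of all genes was 0.40. Emx1, the one paralog of Emx2, was also lower, with 20.2 CPM in the CKO library and 29.4 CPM in the control library (1.46-fold, 1.32 to 1.60). Of 11 other LIM homeobox genes only 2 reached 1 CPM. Lmx1b, a podocyte factor, had 3.10 CPM in the CKO library and 3.39 CPM in the control library, and Lhx6 had 53 reads in the CKO library and 19 in the control library.

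Both genes share their start region with a long noncoding RNA gene that runs the other way. Lhx1os begins 125 bp from Lhx1 and Emx2os 54 bp from Emx2. Each upstream window thus ends next to the factor gene's start and holds the noncoding gene's start, and the windows are shown for that reason. Emx2os had 207 reads in the CKO library and 138 in the control library, 4.86 CPM against 4.58 CPM, a ratio of 1.06 (0.851 to 1.33) whose interval lies above that of Emx2. Lhx1os had 167 reads in the CKO library and 154 in the control library, 3.92 CPM against 5.11 CPM, a ratio of 0.767 (0.612 to 0.961) whose interval overlaps that of Lhx1. The library kit marks strand, but whether the counting used strand is not given in the sources used here. The windows are chr11:84525535-84525784 on the minus strand for Lhx1 and chr19:59458440-59458689 on the plus strand for Emx2 (RefSeq, GRCm38).
Lhx1: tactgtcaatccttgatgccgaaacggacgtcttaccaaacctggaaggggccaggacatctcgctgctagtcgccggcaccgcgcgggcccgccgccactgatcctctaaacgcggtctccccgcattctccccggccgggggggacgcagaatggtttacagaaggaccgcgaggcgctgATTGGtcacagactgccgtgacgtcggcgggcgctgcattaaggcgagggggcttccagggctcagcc
Emx2: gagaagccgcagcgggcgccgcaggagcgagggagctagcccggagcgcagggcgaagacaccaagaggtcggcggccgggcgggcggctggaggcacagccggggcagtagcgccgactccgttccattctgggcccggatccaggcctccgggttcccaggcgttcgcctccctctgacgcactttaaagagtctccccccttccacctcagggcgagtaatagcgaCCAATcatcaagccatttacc

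Across the start regions, 8 of the 10 genes had an entry, with 11 windows of 250 bases, and Sox9 and Myc had none. CCAAT on either strand, the site of NF-Y and other factors, was in windows of 7 of the 8 genes, all but Pax2, and in 8 of the 11 windows, against 33.8% of 32851 windows of all genes. Sox4 held 4 copies. TATAAA was in none (0) of the 11 windows and in 12.4% of all windows. GGAATG, a TEAD site, was in the Sox4 window, where it overlaps a CCAAT copy, and in the proximal Runx1 window, against 12.6% of all. CACGTG, the E-box of MYC and MAX, was in the distal Runx1 window, next to a CCAAT copy, against 6.02% of all. TTCNNNGAA, a STAT site, was in 1 Pax2 window, against 7.02% of all, and TGANTCA, the AP-1 site, and TGACGTCA, the cAMP response element, were in none of the 11, against 6.75% and 1.55% of all. These matches describe letters in these windows only.

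Compared per unit of gene length, in the authors' FPKM, Pax8 was the most abundant of the 10 genes in both libraries, at 41.6 in the CKO library and 32.2 in the control library, followed by Emx2 at 13.1 and 15.8 in that order. In the CKO library the sequence went on with Sox4 (10.3), Pax2 (8.58), Myc (6.35), Lhx1 (4.47), Foxc1 (2.61), Sox9 (1.97), Runx1 (1.25) and Sox11 (0.378), and the counting intervals of all neighbours were apart. In the control library it went on with Pax2 (7.66), Lhx1 (5.51), Sox4 (2.19), Myc (1.78), Foxc1 (1.11), Runx1 (0.0963), Sox9 (0.0598) and Sox11 (0.0267). There the intervals of Sox4 and Myc overlapped, as did those of Runx1 and Sox9 and of Sox9 and Sox11. Sox4 thus ranked 3 in the CKO library and 5 in the control library. FPKM is scaled by library depth without TMM, and its median log2 ratio over all genes was 0.26.

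**Figure D3:**
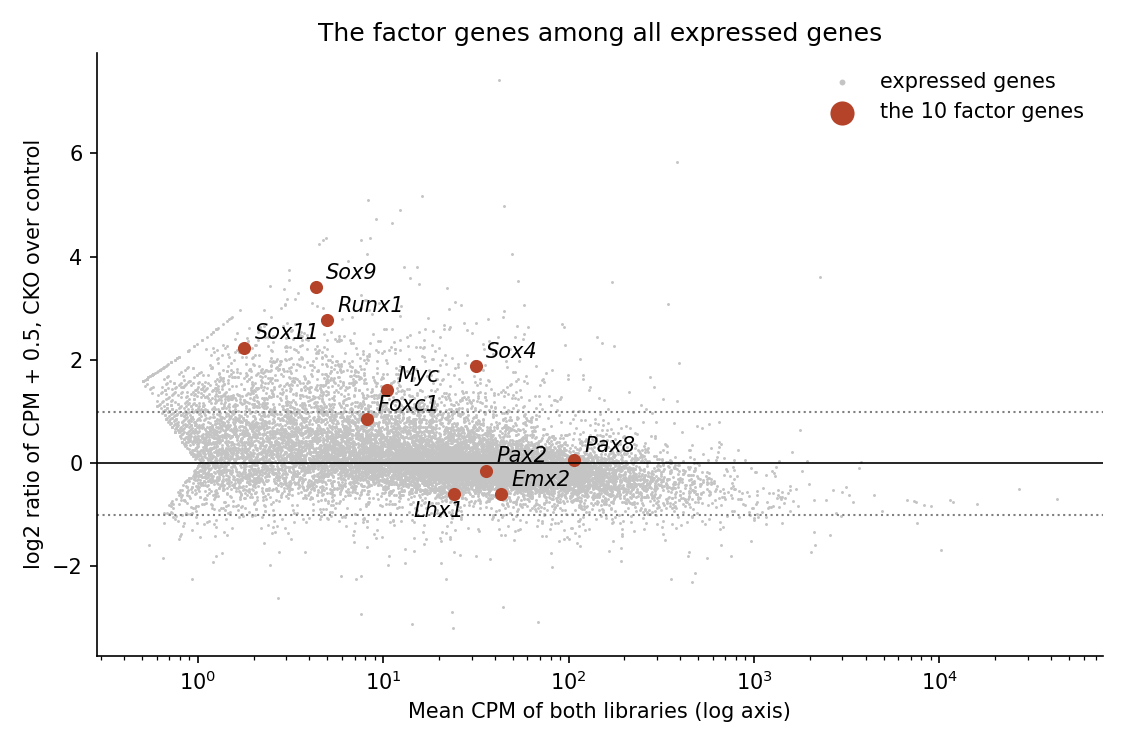
Log2 ratio of CPM + 0.5, CKO over control, against the mean CPM of both libraries (log axis) for 15129 expressed genes (grey) and the 10 factor genes (red), 1 library per group. Sox9, Runx1 and Sox11 lie high among genes of few reads; Sox4 lies at 1.88, and Lhx1 and Emx2 lie at -0.60.

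Genes around these factors in kidney development were mixed. Of 14 nephron progenitor genes, 7 reached 1 CPM, 1 was called higher and none (0) lower, with a median log2 ratio of 0.35. All 7 had 1 CPM or more in the control library, and 6.75% of all such genes were called higher. Six2, the factor that holds progenitors undifferentiated, had 0 reads in both libraries. A limit of 3 reads, used for counts of 0 in place of the exact interval, allows up to 0.0705 CPM in the CKO library and 0.0996 CPM in the control library. Hoxa11 was the one called higher, with 174 reads in the CKO library and 49 in the control library (2.51-fold, 1.82 to 3.52), and Hoxd11 had 157 and 67 reads in that order. Meox1 had 144 reads in the CKO library and 164 in the control library, and Sall1, the most abundant of the list, had 89.7 CPM in the CKO library and 70.2 CPM in the control library.

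Of 14 early nephron patterning genes, 12 reached 1 CPM, 3 were called higher and 1 lower, with a median of 0.19. Of the 11 with 1 CPM or more in the control library, 2 were called higher, against 6.75% of all such genes. Wnt4 passed the minimum through the CKO library alone, where 57.3% of all genes in that position were called higher. Cdh6, a cadherin of the renal vesicle and of proximal tubule precursors, had 1145 reads in the CKO library and 126 in the control library and was 6.43-fold higher (5.34 to 7.79). Wnt4, the signal that turns progenitors into epithelium, had 70 reads in the CKO library and 15 in the control library (3.30-fold, 1.87 to 6.21), and the Notch ligand gene Jag1 had 38.4 CPM in the CKO library and 18.5 CPM in the control library. The lower gene was Hnf4a, the factor of mature proximal tubule, at 688 CPM in the CKO library and 1421 CPM in the control library, 2.06-fold lower (2.03 to 2.10). Of all expressed genes, 1.66% were called lower.

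Of 12 ureteric bud and collecting duct genes, 10 reached 1 CPM, 4 were called higher and none (0) lower, with a median of 0.48. Of the 4, Elf5, Wnt9b and Etv4 passed the minimum through the CKO library alone, as did no other gene of the list, and 57.3% of all genes in that position were called higher. Grhl2 was the 1 gene called among the 7 with 1 CPM or more in the control library, against 6.75% of all such genes. Elf5 had 97 reads in the CKO library and 10 in the control library (6.86-fold, 3.57 to 14.8), Wnt9b, the bud signal that induces nephrons, had 139 and 27 reads in that order (3.64-fold), Grhl2, an epithelial factor, had 360 and 89 reads (2.86-fold), and Etv4 had 60 and 11 reads. Tfcp2l1, the most abundant, had 379 CPM in the CKO library and 302 CPM in the control library. Ret, the receptor of the bud tip, had 13 reads in the CKO library and 0 in the control library.

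Genes of the injured or incompletely repaired tubule were higher almost throughout. Of 16 such genes, 13 were called higher and none (0) lower, with a median log2 ratio of 1.67. Of the 13 with 1 CPM or more in the control library, 10 were called higher, against 6.75% of all such genes. The 3 that passed through the CKO library alone were all called, where 57.3% of all genes in that position were. The list was chosen with earlier results of these data known, so these shares give it no independent support. Lcn2, an injury marker, had 1354 reads in the CKO library and 12 in the control library, the chemokine gene Ccl2 had 710 and 10 reads in that order, and Spp1, osteopontin, had 4196 CPM in the CKO library and 342 CPM in the control library. Of 10 genes of YAP, a cofactor that drives growth of injured epithelium, 3 were called higher and none (0) lower. Their median was 0.29. Of the 9 with 1 CPM or more in the control library, 2 were called higher, against 6.75% of all such genes. Ankrd1 passed the minimum through the CKO library alone, where 57.3% of all genes in that position were called higher. Ankrd1 had 679 reads in the CKO library and 15 in the control library (32.0-fold, 19.3 to 57.5), the receptor gene Axl was 3.26-fold higher and Ccn1 2.80-fold higher, while Ccn2, the most abundant, had 193 CPM in the CKO library and 115 CPM in the control library.

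The cartilage targets of SOX9 were nearly silent. Of 11 genes, 4 reached 1 CPM, 1 was called higher and 1 lower, with a median of 0.38. Of the 4, 2 passed the minimum through the CKO library alone, where 57.3% of all genes in that position were called higher. Col11a1, the gene called higher, was among these 2. Of all expressed genes, 1.66% were called lower. Col11a1 had 69 reads in the CKO library and 9 in the control library, Hapln1 had 65 and 108 reads in that order, and Col11a2 had 160 and 71. Col2a1, the defining target in cartilage, had 14 reads in the CKO library and 0 in the control library.

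**Figure D4:**
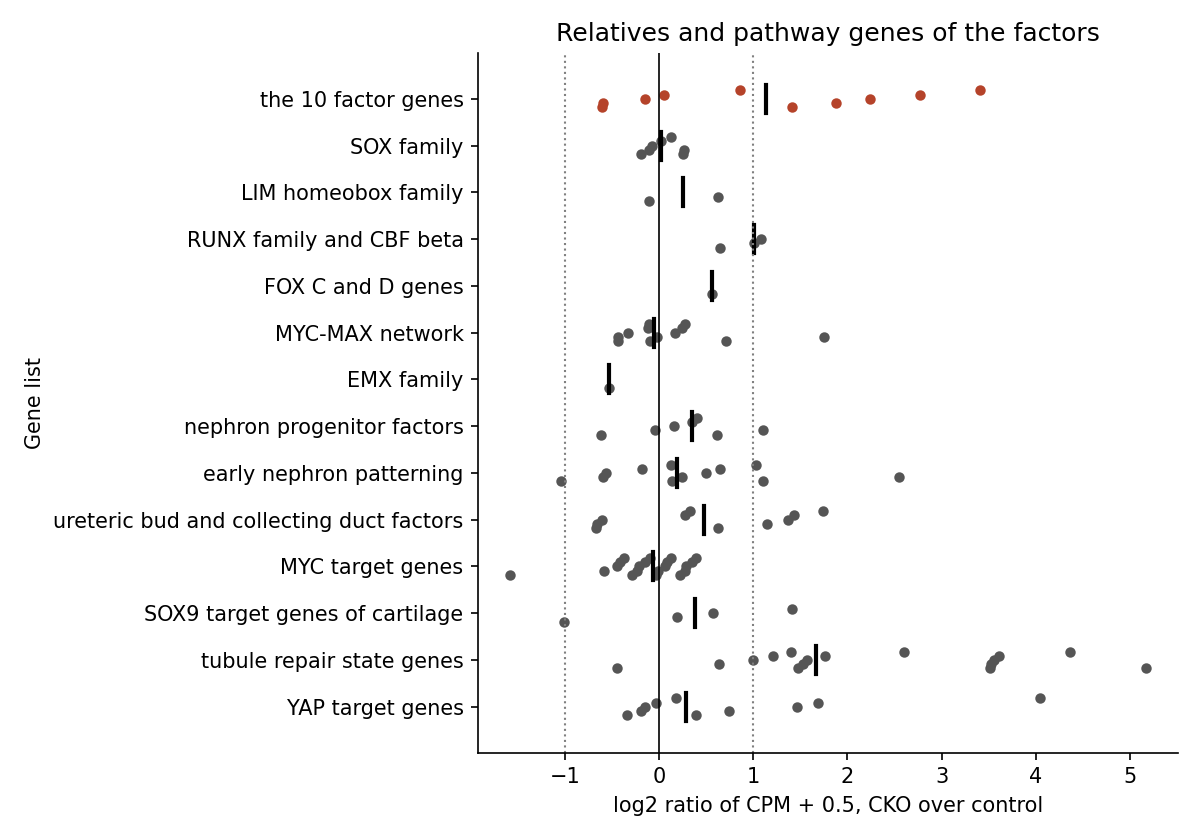
Log2 ratio of CPM + 0.5, CKO over control, for each gene with 1 CPM or more in the 10 factor genes (red) and in the lists of relatives and pathway genes (grey), with the median of each list as a black bar and 2-fold as dotted lines. The median is 1.14 for the factor genes and 0.056 for the 7 of them with 1 CPM or more in the control library. It is 0.02 for the other SOX genes, -0.06 for the MYC targets and 1.67 for the tubule repair genes. No other PAX gene reached the minimum.

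Markers of the nephron segments checked the labelled tissue, and all had reads in both libraries. The 8 proximal tubule markers summed to 9494 CPM in the CKO library and 15707 CPM in the control library. Of these 8, 2 were called lower, against 1.66% of all expressed genes, and the median of the 8 was -0.47. Only Slc5a12 went the other way, at 892 CPM in the CKO library and 747 CPM in the control library. Slc34a1, the phosphate carrier and the most abundant, had 3370 CPM in the CKO library and 6410 CPM in the control library. The 4 thick ascending limb markers summed to 2932 CPM in the CKO library and 1990 CPM in the control library, the 3 distal convoluted tubule markers to 315 CPM and 263 CPM, the 5 intercalated cell markers to 217 CPM and 185 CPM, and the 6 endothelial markers to 350.4 CPM and 383 CPM, in the same order of libraries, with none (0) of these 18 genes called. The part of segment composition in the levels of the 10 genes was not tested.

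The scaling of the libraries moved all 10 genes together. The median log2 ratio of all expressed genes was 0.01 with TMM and 0.32 with total counts, where 2391 genes were called higher and 102 lower in place of 1552 and 251. That is 95.9% higher among the called genes with total counts and 86.1% with TMM. With total counts Foxc1 joined the genes called higher and Pax2 changed sign, while Sox9, Sox4, Sox11, Runx1 and Myc stayed above 2-fold and Lhx1 and Emx2 below 0 under each of the 5 scalings.

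**Figure D5:**
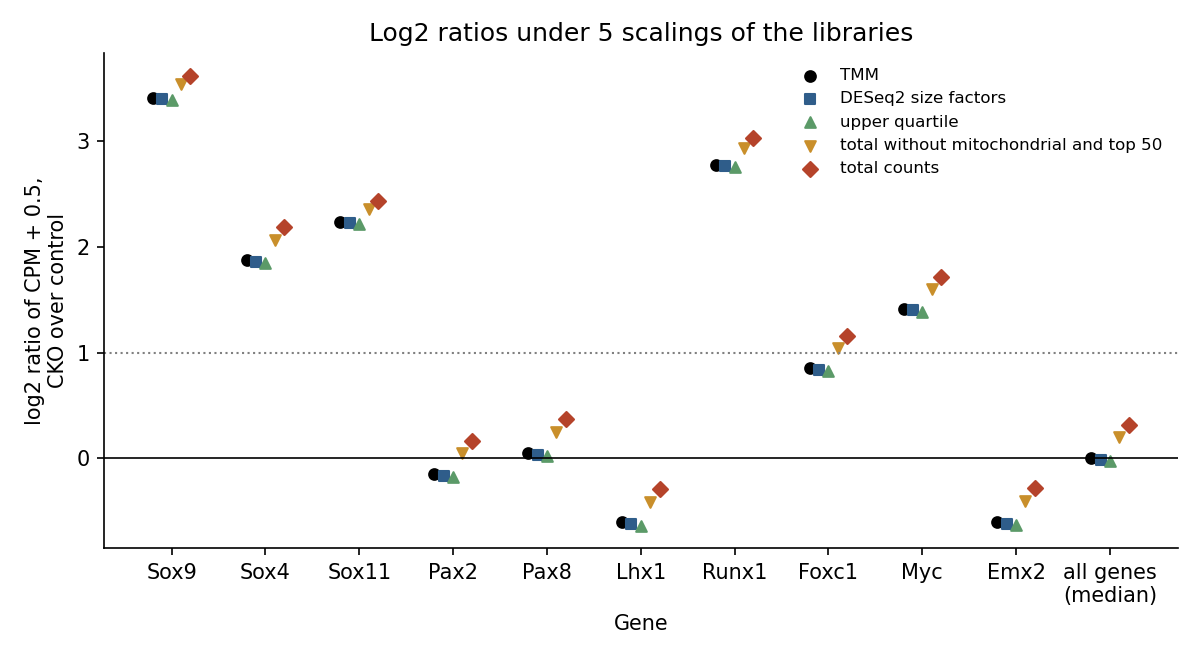
Log2 ratio of CPM + 0.5, CKO over control, for the 10 genes and for the median of all expressed genes under 5 scalings of the library sizes. With total counts the median of all genes lies at 0.32 in place of 0.01, and Pax2 at 0.17 in place of -0.14.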

How the data were processed

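The labels give 2 libraries of whole kidney, 1 CKO and 1 control, made with a stranded mRNA kit per the labels' protocols. Per the submitters' processing notes, the tools were FastQC, STAR 2.7.3a, Cufflinks 2.2.1, HTSeq, edgeR and DESeq2 and the build was mm10, with no role or order stated. The authors deposited whole-number read counts per gene, not normalized, and in the same table FPKM and TPM values, per the file headers. A second deposited table holds signal values for 19550 genes, equal to the counts divided by 1 constant per library (42.6 for CKO and 30.1 for control).

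TMM factors (edgeR 4.0.16, R 4.3.3) were computed from all genes that had reads, giving factors of 1.12 for CKO and 0.896 for control. Log2 ratios use CPM + 0.5. The 95% intervals are exact Poisson ones for levels and, for ratios, exact Clopper-Pearson ones of the CKO share of reads. A count of 0 is given the limit of 3 reads. Python 3.11.15, numpy 2.4.6, pandas 2.3.3, scipy 1.17.1 and matplotlib 3.10.9 did the rest, and DESeq2 1.42.0 gave alternative size factors. Counts were simulated for 45777 genes of the CKO and control comparison. The rule called 100 of 100 genes made 4-fold higher and 100 of 100 made 4-fold lower. None (0) of 14646 unchanged genes was called. These counts held counting error only, with no spread between animals or library preparations, and the changed genes were not drawn from those with the fewest reads. The simulation therefore checks the computation and gives no rate of false calls for the real libraries.

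The members and lists were chosen with earlier results of these data known. Genes named are the 10 members, Inmt, the 3 genes of each family or pathway list with the largest absolute log2 ratio, and the most abundant gene of each list. Other genes, the neighbours included, were chosen after their values were seen. Genes of like pattern were not sought, since 2 libraries give no measure of likeness. Positions and start regions are from RefSeq on GRCm38, the assembly that mm10 names, matched by NCBI gene ID, and exon numbers and strands are from GENCODE M21.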

Additional observations from a re-analysis of the deposited data

How the results depend on the processing

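All 13 alternatives gave a value for Sox4, Myc, Foxc1, Pax2, Pax8, Lhx1 and Emx2, but Sox9 and Runx1 fell under a minimum of 10 CPM, and Sox11 did so too and also fell under 1 FPKM and 1 TPM. Sox9, Sox4, Runx1 and Myc were called higher wherever they had a value, and so was Sox11. The log2 ratio ranged from 2.14 to 4.28 for Sox9, from 1.20 to 3.08 for Sox11 and from 1.56 to 3.20 for Runx1, and their highest values came with a pseudocount of 0.1 CPM. Pax2 was above 0 under 4 of 13 alternatives and Pax8 under all 13. Changes of the minimum, fold limit or pseudocount cannot alter a sign.

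With a minimum of 10 CPM, 7 of the 10 genes were left, 2 were called higher, and the median of the 7 was 0.056. Of all 10189 genes left, 573 (5.62%) were called higher, as were 17 of the family and pathway genes (28 in the main analysis). With a 1.5-fold limit, 2 of the 10 genes, Lhx1 and Emx2, were called lower, as were 8 family and pathway genes (3 in the main analysis). Of all 15129 genes, 2920 (19.3%) were higher and 1037 (6.85%) lower. With total counts the median of the 10 genes was 1.43, 2391 of all genes were higher and 102 lower, and 1 family or pathway gene was lower. Without mitochondrial and the 50 most abundant genes in the totals, 142 of all genes and 1 family or pathway gene were lower. With a pseudocount of 2 CPM, 825 of all genes were higher and 167 lower, and 18 family and pathway genes were higher. With FPKM, 102 of all genes and 1 family or pathway gene were lower, and with TPM 2613 of all genes were higher and 139 lower, and 1 family or pathway gene was lower. The cause of these shifts was not tested.

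No paired analysis was possible because each group has 1 library, which also leaves no replicate to leave out. The 10 reads of Sox9 and 9 of Sox11 in the control library limit how closely their ratios are known.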

Other observations

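The genes beside the factors did not all share their direction. Within 200 kb of the 10 genes, 20 other genes reached 1 CPM, of which 4 were called at least 2-fold higher and none (0) lower. All 4 were among the 5 that passed the minimum through the CKO library alone, where 57.3% of all genes in that position were called higher, and none (0) of the 15 with 1 CPM or more in the control library was called, against 6.75% of all such genes. Pax8, whose own ratio was 1.04, had 3 of the 4. Psd4, 10.7 kb away, had 230 reads in the CKO library and 28 in the control library (5.81-fold higher, 3.91 to 8.94). Il1rn, the interleukin 1 receptor antagonist gene, had 188 reads in the CKO library and 4 in the control library (33.2-fold higher, 12.8 to 123). Il1f6, an interleukin 1 family gene, had 75 reads in the CKO library and 0 in the control library, at least 17.7-fold higher against a floor of 3 reads in that library, a bound that holds only if the listed 0 is a true count.

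The fourth was Clic6, a chloride channel gene 60.2 kb from Runx1, with 186 reads in the CKO library and 12 in the control library (11.0-fold higher, 6.13 to 21.6). Rcan1, on the far side of Clic6, had 81.1 CPM in the CKO library and 97.6 CPM in the control library. Pvt1, the noncoding RNA gene 47.6 kb from Myc, had 135 reads in the CKO library and 42 in the control library (2.27-fold, 1.60 to 3.30), under the 2-fold limit once 0.5 is added to each CPM. Gmds, 8.95 kb from Foxc1, had 606 reads in the CKO library and 262 in the control library (1.64-fold, 1.41 to 1.90). Of the 7 expressed neighbours of Pax2, none (0) was called.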
